A study of Mus musculus with 14 samples.

Results

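Embryoid bodies made from mouse embryonic stem (ES) cells were given doxycycline to switch on ER71 (the ETS family transcription factor encoded by Etv2), GATA2 and Scl (encoded by Tal1), and the size of the response after 12 h was compared with its size after 24 h. For each gene the induction effect is the log2 difference between induced cells and untreated cells of the same day, and the quantity described here is the change of that effect: the effect at 24 h minus the effect at 12 h. The comparison used 12 of the 14 arrays of the series and all 19938 genes that had a named probe set. Its 4 groups held 3 arrays each: control day 2.5, induced 12 h (also day 2.5), control day 3 and induced 24 h (also day 3). The doxycycline dose was 1 µg/ml, given between days 2 and 3 of differentiation in medium with serum and ascorbic acid, and all cells had been kept on PMEF feeder cells beforehand. Replicates 1 and 2 came from the line iEGS and replicate 3 from the line iB1 in every group. The labels give the genotype of the untreated cells as wild-type and their source as the same lines without doxycycline, and that of the treated cells as ER71/Etv2, GATA2 and Scl co-expression. The design text calls the data 3 independent experiments, and it counts 3 transcription factors but names only the first pair. A doxycycline control that lacks the factors is not analysed here, and the hours of induction and the day of differentiation advance together, so their shares in a change of the effect cannot be told apart.

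In embryoid bodies, as in the gastrulating embryo, epiblast cells pass through a primitive streak stage driven by Nodal, Wnt and FGF signals before they become cardiac, paraxial, endodermal or blood and vessel-forming cells. ER71, GATA2 and Scl are transcription factors of the hemangioblast, a precursor of blood and endothelium, and ETS factors bind enhancers of many endothelial genes. A response that is present early and gone later differs from a response that builds up, and a gene can also change its effect because the untreated cells move on while the induced cells do not.

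The labelled cell type could be checked against its markers. The 24 measured genes of a pluripotency list averaged 7.74 to 8.26 log2 units in the control day 2.5 arrays and 6.92 to 7.40 in the induced 24 h arrays, against a median of 5.56 over all genes. The 18 measured genes of a fibroblast feeder list averaged 4.39 to 4.95 in the 12 arrays, and 14 to 16 of them lay below the median of all genes in each group. Their summed linear signal was 522 to 783 in control day 2.5, 827 to 1002 in induced 12 h, 541 to 667 in control day 3 and 691 to 852 in induced 24 h. The part of these feeder-type signals in the results was not tested. Replicate 3 of induced 24 h correlated least with the other arrays (mean r 0.968) and had the narrowest spread of signals (SD 1.91 against at least 2.04 elsewhere). Pairs of induced 24 h arrays differed by 0.371 to 0.615 (root mean square over genes, log2), and pairs within the other groups by 0.236 to 0.416.

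The induction effect changed between 12 h and 24 h in 85 of 19938 genes (0.426%; limma, Benjamini-Hochberg adjusted p under 0.05). In 20 genes (0.100%) the effect was higher at 24 h and in 65 genes (0.326%) it was lower. Of these 85 changes, 84 were at least 2-fold and 23 at least 4-fold, while the median change over all genes was -0.01. Each of the 85 had the same sign in all 3 same-numbered sets of arrays, which held for 29.5% of all genes, and the same sign on the linear scale. The change is the mean over these sets, so the 85 were chosen from the same values. Their shared sign is therefore no further test. At an unadjusted p under 0.05 the count was 1139 genes (5.71%), close to the share that this threshold passes when no effect changes. With each same-numbered pair of control and induced arrays of a day as a block, 140 genes passed, 28 higher and 112 lower at 24 h, and they included all 85. After a further quantile normalization the split of calls was 48 higher and 82 lower.

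The count depended on single arrays. It was 48 without replicate 1 of control day 3, 48 without replicate 2 of induced 12 h and 48 without replicate 3 of induced 12 h. It was 91 without replicate 3 of induced 24 h, which correlated least with the other arrays, and 109 without replicate 1 of that group. With all 4 arrays of replicate 2 left out 4 genes passed (Cer1, Lhx1, Cfc1 and Asb4), and without those of replicate 3 only Ctla2a and Asb4 did; without replicate 1 there were 73. A total of 41 genes passed whichever single array was left out.

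The sizes of the fitted effects placed the 85 genes in classes. A larger or later rise was found in 20 genes, a rise that faded in 8, a larger or later fall in 57 and a fall that faded in 0. All 20 late rises passed the test of the effect at 24 h and 6 of them also at 12 h. Their median effect went from 0.60 at 12 h to 2.47 at 24 h. Among the 57 late falls, 57 passed at 24 h and 11 at 12 h, and the median effect went from -0.29 to -1.96. All 8 fading rises passed at 12 h and none at 24 h, with a median effect of 1.07 and then -0.31. These effects are parts of the same contrast, so they describe the change and do not test it again.

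**Figure D1:**
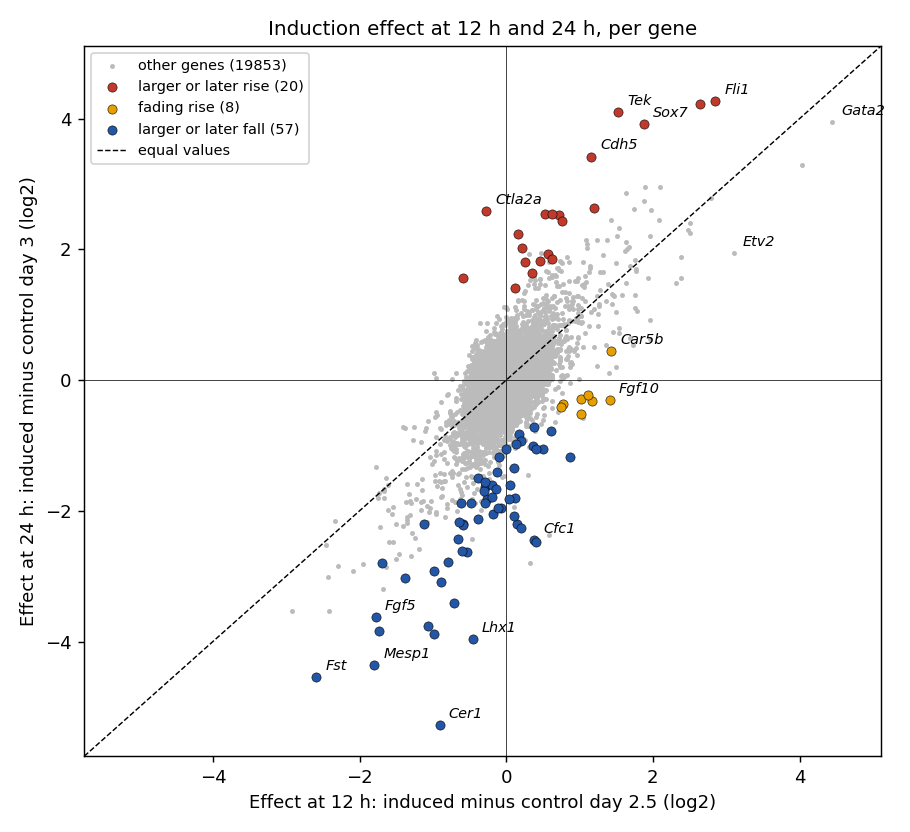
Induction effect at 12 h (x axis) against the effect at 24 h (y axis), in log2 units, for 19938 genes, with the 85 genes whose effect changed in colour and equal values on the dashed line. The 20 late rises lie above the line, the 57 late falls below it on the side of lower values at 24 h, and the 8 fading rises between 0.74 and 1.43 at 12 h.

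Measured one time at a time, 277 genes (1.39%) had an effect at 12 h, 162 upward (0.813%) and 115 downward (0.577%). At 24 h there were 1088 (5.46%), 405 upward (2.03%) and 683 downward (3.43%). A gene past the threshold at 24 h only was not thereby shown to change: of 864 such genes 60 passed the test of the change (6.94%), although 860 had the larger fitted effect at 24 h. Of 53 genes past the threshold at 12 h only, 8 passed the test of the change (15.1%), and of 224 past it at both times with the same sign, 17 did (7.59%). No gene passed at both times with opposite signs.

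Genes of the vascular endothelium made up 7 of the 20 late rises. Of 54 endothelial list members, 7 had a higher effect at 24 h and 0 a lower one (13.0% against 0.426% of all genes), and the median change over the list was 0.39. They were the receptor Tek, the adhesion molecule Cdh5, the transcription factors Sox7 and Fli1, the phosphatase Ptprb, the gap junction protein Gja4 and the secreted factor Egfl7. In bulk RNA more cells of a type and more RNA per cell cannot be told apart. The summed linear signal of the list was 2196 to 2454 in control day 2.5, 4037 to 4977 in induced 12 h, 3378 to 3871 in control day 3 and 6996 to 9872 in induced 24 h, and these 4 ranges did not overlap. Such a sum is weighted toward bright genes. Between the control days the median log2 difference of the list was 0.02, and 4 of 54 genes rose by the test. Among them were Aplnr (mean 6.96, then 10.01) and Kdr (5.06, then 7.09). The list also holds the induced factor Tal1, and it was drawn up with earlier results of these data known.

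Tek encodes Tie2, the angiopoietin receptor of endothelial cells. Its log2 signal (replicates 1, 2 and 3 in this order throughout) was 4.95, 4.28 and 4.31 in control day 2.5, 6.42, 5.92 and 5.78 in induced 12 h, 4.20, 4.52 and 4.48 in control day 3 and 9.32, 8.20 and 8.0 in induced 24 h. Every induced array lay above every control array, and the 24 h arrays lay above the 12 h arrays by more than 1 log2 unit. The effect was 1.53 at 12 h and 4.10 at 24 h, a change of 2.58 ± 0.42 (SE, limma, n = 3 arrays per group; adjusted p = 0.0118). Cdh5, VE-cadherin of endothelial junctions, read 5.46, 5.11 and 4.96 in control day 2.5 and 6.56, 6.18 and 6.28 in induced 12 h. At day 3 the controls read 5.76, 5.52 and 5.42 and the induced arrays 9.50, 9.02 and 8.43. The change of its effect was 2.26 ± 0.33 (adjusted p = 0.00554), and the induced 24 h arrays spread over more than 1 log2 unit.

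Among the transcription factors, Sox7, a SOXF factor of early endothelium and extra-embryonic endoderm, read 5.29, 4.85 and 4.97 in control day 2.5 and 7.30, 6.60 and 6.83 in induced 12 h. It read 4.79, 4.72 and 4.86 in control day 3 and 8.36, 9.09 and 8.70 in induced 24 h, and the 24 h arrays all lay above the 12 h arrays. Its effect grew from 1.87 to 3.92 (change 2.05 ± 0.29; adjusted p = 0.00554). Fli1, an ETS factor of blood and endothelium, was already 8.55, 8.31 and 8.14 in the induced 12 h arrays against 5.22, 5.62 and 5.61 in the controls. At 24 h it was 9.99, 9.86 and 9.49 against 5.39, 5.52 and 5.61. This made its effect at 24 h, 4.27, the highest among the 20 late rises, with a change of 1.42 ± 0.24 (adjusted p = 0.0163). Tek, Cdh5 and Sox7 passed whichever single array was left out. Fli1 did not pass without replicate 1 of control day 3, replicate 2 or 3 of induced 12 h, replicate 2 of induced 24 h or replicate 3 of control day 2.5 (adjusted p at most 0.0637).

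Ets2, an ETS factor with roles in trophoblast and in signalling downstream of growth factors, stood apart from the controls at 24 h. Its 12 h arrays read 7.95, 7.76 and 7.82 against 7.66, 7.32 and 7.76 in the controls, ranges that touch. At 24 h the induced arrays read 9.62, 9.42 and 9.21 against 7.81, 7.44 and 7.58. The effect was 0.26 at 12 h (adjusted p = 0.999) and 1.81 at 24 h, a change of 1.55 ± 0.23 (adjusted p = 0.0056). Ets1, another ETS factor, gave 1.14 ± 0.24 with an adjusted p of 0.0587 and is therefore not among the 85.

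Egfl7, a protein that endothelial cells secrete into their matrix, read 7.91, 7.73 and 7.74 in induced 12 h against 6.60, 6.56 and 6.64 in control day 2.5, and 9.07, 9.07 and 8.79 in induced 24 h against 6.54, 6.39 and 6.11 in control day 3. The groups did not overlap at either time, and the effect changed by 1.44 ± 0.20 (adjusted p = 0.00554). Ptprb, the endothelial phosphatase VE-PTP that acts on Tie2 and VE-cadherin, differed little at 12 h, with 4.58, 4.59 and 4.59 in induced and 4.39, 4.54 and 4.35 in control arrays. At 24 h it read 7.38, 6.29 and 5.89 in induced and 4.48, 3.91 and 4.44 in control arrays. The change was 2.08 ± 0.40 (adjusted p = 0.0344) and did not pass without any of 10 of the 12 arrays (adjusted p at most 0.114). Gja4, the gap junction protein connexin 37 of arterial endothelium, read 5.24, 5.17 and 4.96 in induced 12 h and 4.68, 5.03 and 4.07 in control day 2.5, then 7.14, 7.22 and 7.0 in induced 24 h and 5.06, 4.40 and 4.30 in control day 3. Its change was 2.01 ± 0.33 (adjusted p = 0.0133, and 0.0536 without replicate 3 of induced 12 h, the only array on which its call turned).

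Other endothelial genes gave values that did not pass. Kdr, the VEGF receptor that marks the mesoderm from which blood and vessels arise, had an effect of 1.96 at 12 h and 0.62 at 24 h (change -1.34 ± 0.37, adjusted p = 0.247). Its control arrays rose by the test between the days, from 5.26, 4.97 and 4.96 to 7.37, 6.77 and 7.11, and its induced arrays read 7.51, 6.79 and 6.77 and then 8.33, 7.47 and 7.32. Sox18, the SOXF relative of Sox7, had nearly equal effects of 2.51 and 2.41. Aplnr, the apelin receptor, gave -1.43 ± 0.43 (adjusted p = 0.328), the lowest value of the endothelial list. The list's genes therefore did not move as a block: 42 of 54 had a change above 0 and 12 a change below 0.

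Of 27 measured blood progenitor genes 2 passed (7.41%, against 0.426% of all genes), with a median change of 0.38. They were Tek and Fli1, which the endothelial list also holds. Runx1, the factor that starts definitive blood formation, had effects of 1.15 at 12 h and 1.72 at 24 h (change 0.57 ± 0.27, adjusted p = 0.872). None of 14 erythroid genes passed, and their median change was 0.28. In the VEGF and angiopoietin pathway 2 of 17 passed, the receptor Tek and its phosphatase Ptprb, while the ligand Angpt2 gave 0.21 ± 0.34 (adjusted p = 0.999).

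**Figure D2:**
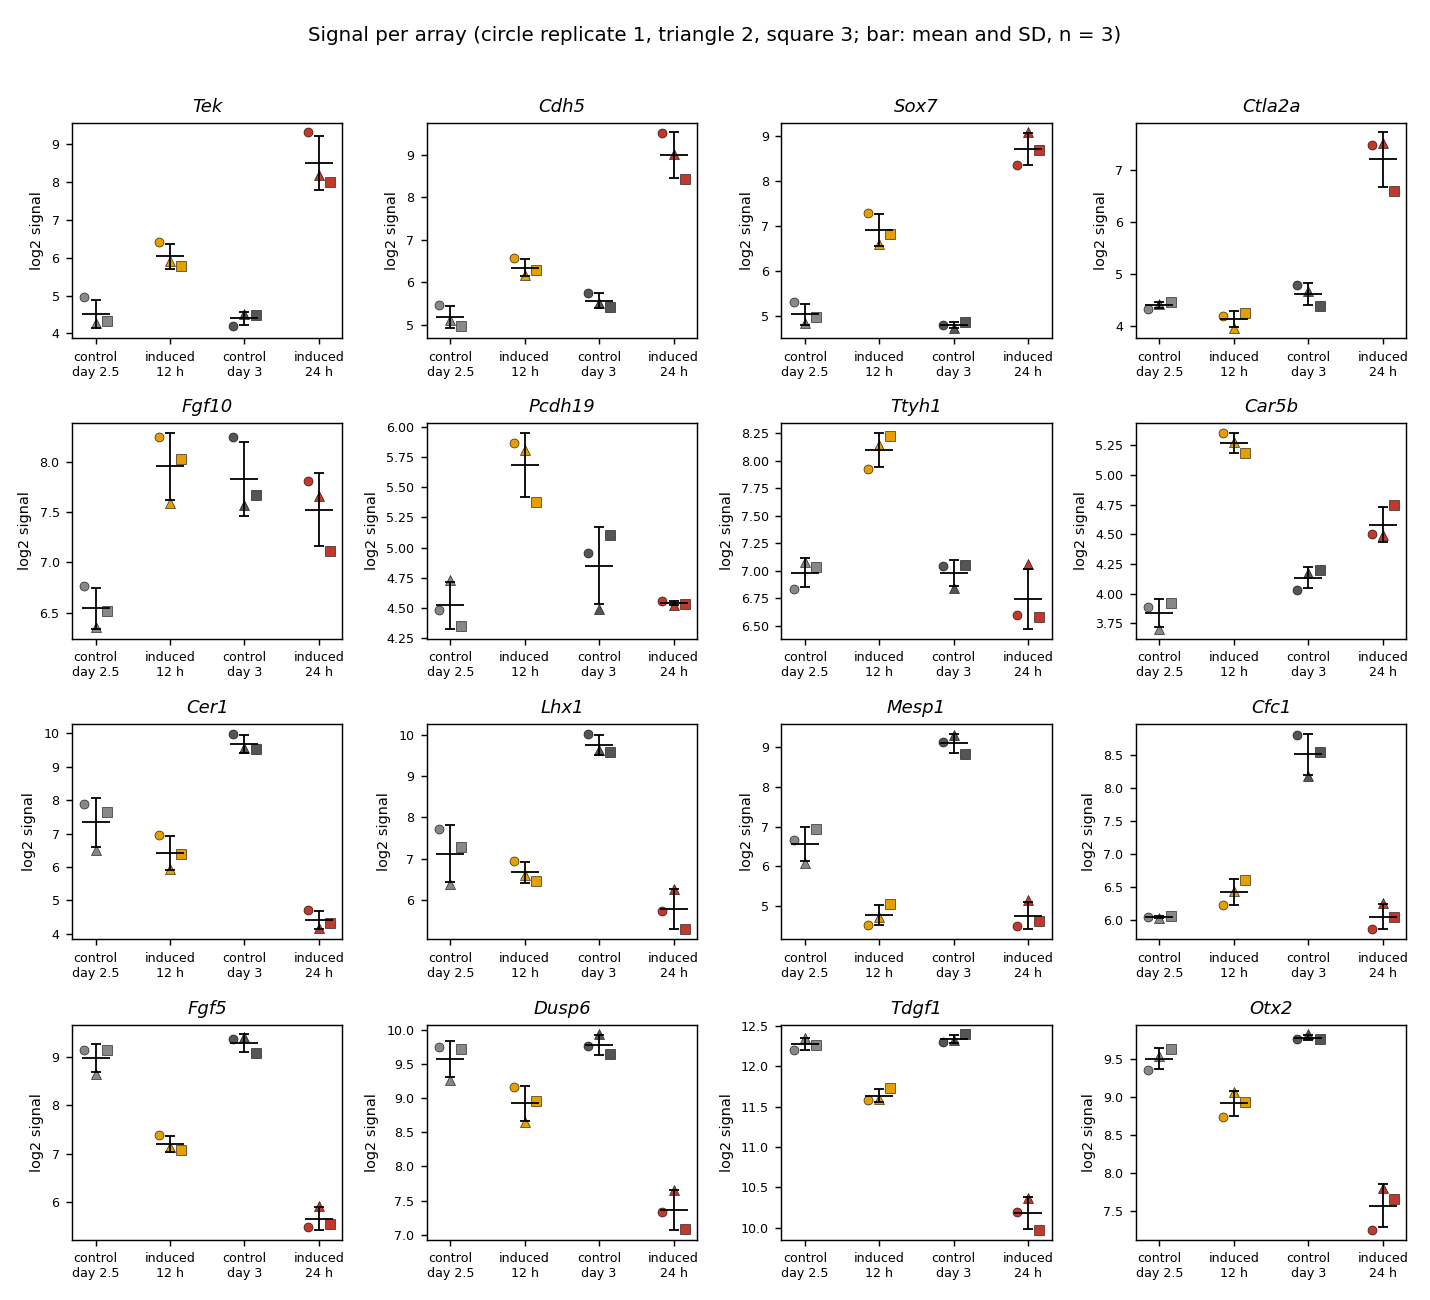
Log2 signal of each array (y axis) in the 4 groups (x axis) for 16 genes, with mean and SD (n = 3) as bars and the replicate number as the marker shape. In the top row the induced 24 h arrays lie above all others, in the second row the induced 12 h arrays lie above control day 2.5, in the third row the control day 3 arrays lie above all others, and in the bottom row the induced 24 h arrays lie below all others.

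The highest change of all belonged to Ctla2a, which encodes a cysteine protease inhibitor related to the propeptide of cathepsins. It read 4.33, 4.42 and 4.46 in control day 2.5 and 4.18, 3.95 and 4.25 in induced 12 h, so that the induced arrays were not above the controls. In control day 3 it read 4.79, 4.67 and 4.37 and in induced 24 h 7.49, 7.52 and 6.60. The change was 2.86 ± 0.30 (adjusted p = 0.000862), a 7.27-fold difference between the effects. Ctla2b, which is near-identical in sequence, gave 2.14 ± 0.37 (adjusted p = 0.0167, and at most 0.0643 without any of 4 arrays). Its induced 24 h arrays read 6.59, 6.84 and 6.19 and its control arrays 4.57 to 5.86. Probe sets of this pair may share signal, so the share of each is uncertain.

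The remaining 10 late rises were of mixed function. Npl, a lyase of sialic acid breakdown, was high at both times, with 8.71, 8.72 and 8.58 in induced 12 h against 6.08, 5.76 and 6.25 in the controls and 10.48, 10.18 and 9.99 in induced 24 h against 6.08, 6.05 and 5.86. Its change was 1.59 ± 0.23 (adjusted p = 0.00554). Rnd2, a small GTPase, read 6.29, 5.94 and 6.34 in induced 12 h against 5.63, 5.40 and 5.67, and 8.10, 7.72 and 7.39 in induced 24 h against 5.24, 4.98 and 5.39. The change of 1.91 ± 0.27 (adjusted p = 0.00504) included a difference of -0.37 between the control days. Gadd45g, a growth arrest and stress gene, read 7.84, 7.29 and 6.67 in induced 24 h and changed by 1.79 ± 0.34 (adjusted p = 0.0342). For Ubash3b, a phosphatase that dampens tyrosine kinase signals, the 24 h arrays read 7.64, 6.67 and 6.42 and the change was 1.81 ± 0.34 (adjusted p = 0.0332). Neither passed without any of 10 arrays (adjusted p at most 0.131 and 0.114), and the 24 h arrays of both spread over more than 1 log2 unit.

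Scube2, a secreted protein that helps release Hedgehog ligands, changed by 1.68 ± 0.32, and its 24 h arrays of 8.75, 8.03 and 7.91 stood above control day 3 arrays of 5.59, 5.75 and 6.06. Glp1r, the receptor of glucagon-like peptide 1, changed by 1.36 ± 0.20, from 5.28 to 5.66 in induced 12 h to 6.78, 6.63 and 6.61 in induced 24 h. Srxn1, sulfiredoxin of the antioxidant response, changed by 1.36 ± 0.24, with 8.60, 8.49 and 8.23 in induced 24 h and 6.52, 6.76 and 6.26 in control day 3. The growth factor Igf1 read 4.82, 4.77 and 4.45 in induced 12 h and 6.11, 5.85 and 5.95 in induced 24 h, a change of 1.28 ± 0.20. Skap1, an adaptor of immune receptor signalling, changed by 1.29 ± 0.22, and the tetraspanin Tspan18 by 1.24 ± 0.22. Adjusted p of these 6 genes ran from 0.0056 for Glp1r to 0.0354 for Scube2. Glp1r and Igf1 passed without each single array, and the others did not pass without any of 2 (Skap1), 6 (Srxn1), 8 (Tspan18) or 9 (Scube2) arrays, with adjusted p at most 0.129.

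In all 20 late rises the 3 induced 24 h arrays lay above the other 9 arrays, a pattern that 351 genes of all tested showed (1.76%). All 20 passed the test between the induced times upward (0.557% of all genes did). The genes were chosen by a change computed from these same arrays, so both patterns are partly built in and are no further test. Between the control days 0 of the 20 passed, which is near the share of all genes (0.757%) and does not set them apart. The median difference between the induced times was 1.58 and between the control days -0.03. In all 20 the difference between the induced times was larger in size than that between the control days. The control differences ran from -0.42 (Srxn1) to 0.39 (Cdh5) and are a part of each change.

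Promoter sequence was read for the classes because the induced factors are an ETS, a GATA and a basic helix-loop-helix factor. The classes were formed by the test of the change, and direct regulation of their genes was not tested. The windows are the 250 bases before each annotated start in RefSeq (GRCm38.p6), and 13 of the 20 late rises had at least 1 window there (17 windows). The window of Ctla2a at chr13:60936626-60936875 (minus strand, 1 of its 2 starts) and that of Tek at chr4:94739039-94739288 (plus strand) are shown because these genes had the highest changes, and that of Fgf10 at chr13:118714449-118714698 (plus strand) because it leads the fading rises. All are written 5′ to 3′ in the direction of the gene, and capitals mark matches to the motifs below on either strand.
Ctla2a: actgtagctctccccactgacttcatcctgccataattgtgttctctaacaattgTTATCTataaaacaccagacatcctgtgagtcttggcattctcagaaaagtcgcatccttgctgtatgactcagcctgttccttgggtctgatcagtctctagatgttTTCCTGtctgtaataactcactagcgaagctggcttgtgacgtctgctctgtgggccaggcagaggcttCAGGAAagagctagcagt
Tek: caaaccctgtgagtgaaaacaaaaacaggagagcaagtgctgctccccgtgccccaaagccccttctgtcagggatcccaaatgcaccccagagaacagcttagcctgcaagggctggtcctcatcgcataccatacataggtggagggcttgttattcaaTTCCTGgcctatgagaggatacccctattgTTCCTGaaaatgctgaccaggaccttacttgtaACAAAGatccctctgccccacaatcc
Fgf10: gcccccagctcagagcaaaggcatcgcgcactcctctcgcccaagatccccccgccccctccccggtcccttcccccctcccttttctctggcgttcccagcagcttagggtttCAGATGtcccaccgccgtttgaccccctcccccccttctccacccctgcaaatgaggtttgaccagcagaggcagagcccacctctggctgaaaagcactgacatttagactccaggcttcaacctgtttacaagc
The capitals in Ctla2a are the ETS core CAGGAA once in each orientation (CAGGAA and TTCCTG) and the GATA site AGATAA in reverse (TTATCT). In Tek they are the ETS core in reverse at 2 places and the SOX site ACAAAG. In Fgf10 they are the E-box CATCTG in reverse (CAGATG).

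The ETS core in its CAGGAA form occurred in 9 of 17 windows of the late rises (52.9%; 7 of 13 genes), in 3 of 10 windows of the fading rises, in 17 of 61 windows of the late falls (27.9%) and in 23.6% of 19177 windows of all genes tested. The CCGGAA form occurred in 0 of the 17 windows and in 15.7% of all. The GATA site AGATAA was found in 2 of 17 windows (8.45% of all), the E-box CAGCTG in 3 (12.7% of all), the E-box CATCTG in 0 (11.9% of all), the T-box site TCACAC in 2 (10.5% of all) and the SOX site ACAAAG in 5 (14.6% of all). Both strands were searched, CAGCTG reads the same on both and is counted once, and the forms CAGGAA and CCGGAA share the letters GGAA but cannot match at the same place. Starts of a gene can overlap, as those of Ctla2a do, so windows are not independent. A match is a description of the letters and no measure of binding.

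The 8 fading rises held no gene of the endothelial list. Fgf10, a fibroblast growth factor of limb, lung and heart field development, led them. It read 6.76, 6.36 and 6.52 in control day 2.5 and 8.25, 7.59 and 8.03 in induced 12 h, where the groups did not overlap. In control day 3 it read 8.25, 7.58 and 7.67 and in induced 24 h 7.81, 7.66 and 7.11, where they did. The effect of 1.41 at 12 h became -0.31 at 24 h, a change of -1.72 ± 0.32 (adjusted p = 0.0312). Here the controls had reached the 12 h level of the induced cells: they differed by 1.29 between the days (adjusted p = 0.0153), and the induced arrays by -0.43 (adjusted p = 0.492).

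Pmp22, a membrane protein of myelin that many non-neural cells also make, followed the same course. It read 7.44, 7.62 and 7.57 in control day 2.5, 8.79, 8.35 and 8.53 in induced 12 h, 9.38, 8.99 and 9.56 in control day 3 and 8.42, 9.15 and 8.80 in induced 24 h. Its controls rose by 1.77 (adjusted p = 0.000456), and the effect went from 1.02 to -0.52 (change -1.54 ± 0.28, adjusted p = 0.0231). These were the 2 of 8 fading rises in which the controls moved more than the induced arrays.

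In the other 6 the induced arrays themselves were lower at 24 h than at 12 h. Ttyh1, a membrane protein of neural progenitors, was 7.93, 8.14 and 8.22 in induced 12 h and 6.59, 7.06 and 6.58 in induced 24 h, while its controls read 6.83, 7.07 and 7.03 and then 7.04, 6.84 and 7.05. The controls kept 1 level and the induced arrays came back to it (change -1.35 ± 0.22, adjusted p = 0.0137). Pcdh19, a protocadherin of cell adhesion, read 5.87, 5.81 and 5.38 in induced 12 h and 4.56, 4.53 and 4.53 in induced 24 h, with controls of 4.48, 4.73 and 4.35 and 4.95, 4.49 and 5.10 (change -1.48 ± 0.26, adjusted p = 0.0164). Crym, a thyroid hormone binding protein, fell from 7.20, 7.18 and 7.20 to 6.02, 6.19 and 5.89 in the induced arrays, below controls of 6.61, 6.48 and 6.25 (change -1.16 ± 0.20, adjusted p = 0.0163). For Crym the induced 24 h arrays lay below all other 9 arrays, the only fading rise with that pattern.

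Nxph4, a secreted neurexin ligand, read 6.42, 6.30 and 6.08 in induced 12 h and 5.14, 5.65 and 5.51 in induced 24 h, and its controls read 4.92, 5.25 and 5.57 and 5.79, 5.74 and 5.63 (change -1.31 ± 0.25, adjusted p = 0.038). It did not pass without any of 11 of the 12 arrays. Ceacam10, of the carcinoembryonic antigen family, went from 5.49, 5.52 and 5.23 to 4.64, 4.89 and 4.74 in the induced arrays (change -1.15 ± 0.21, adjusted p = 0.0261). Car5b, a mitochondrial carbonic anhydrase, kept an effect at 24 h of 0.45 that did not pass (adjusted p = 0.0712). Its induced arrays read 5.35, 5.27 and 5.18 and then 4.50, 4.50 and 4.75 against controls of 3.89, 3.70 and 3.92 and 4.03, 4.17 and 4.20 (change -0.99 ± 0.19, adjusted p = 0.0312). It did not pass with centred arrays, and it was the only fading rise whose effect kept its sign. All readings of Car5b lay below the median of all genes (5.56). An alternative that left out genes of low mean signal removed Car5b and Pcdh19.

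None of the 8 passed without each of the 12 arrays in turn. They did not pass without any of 3 (Ttyh1), 4 (Crym), 6 (Pcdh19 and Ceacam10), 7 (Pmp22), 8 (Fgf10), 10 (Car5b) or 11 (Nxph4) arrays, with adjusted p at most 0.12, and 0 of the 8 passed without replicate 1 of control day 3. In 5 of the 8 the induced 12 h arrays lay above the other 9 arrays (0.868% of all genes), a pattern that the choice of the genes by these arrays favours. Hey1, a transcriptional repressor of the Notch pathway, had effects of 1.96 and 0.92, and its change of -1.04 ± 0.22 did not pass (adjusted p = 0.0593).

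The largest class was the 57 late falls, led by genes of the primitive streak and its organizer. Of 26 measured streak and organizer genes 12 had an effect that was lower at 24 h than at 12 h and 0 one that was higher (46.2%, against 0.426% of all genes called and 0.326% lower), with a median change of -1.31. They were Cer1, Lhx1, Frzb, Mesp1, Eomes, Mixl1, Dkk1, Snai1, Fst, Sp5, Otx2 and Tdgf1. Otx2 is also in the epiblast list and Tdgf1 in the pluripotency list. The streak list was drawn up with earlier results of these data known, and its member T was not measured. At 12 h 12 of the 26 were already below the controls by the test (0.577% of all genes were), and at 24 h 22 were (3.43% of all genes). The summed linear signal of the list was 9302 to 10703 in control day 2.5, 5465 to 5960 in induced 12 h, 14189 to 15710 in control day 3 and 2378 to 3003 in induced 24 h. This sum thus moved up between the control days and down between the induced times. By the test 8 of the 26 rose between the control days and 7 fell between the induced times.

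Cer1, the secreted antagonist Cerberus that blocks Nodal and BMP signals, had the change of the greatest size of all genes. It read 7.87, 6.50 and 7.63 in control day 2.5 and 6.95, 5.95 and 6.38 in induced 12 h, where the ranges overlapped. It read 9.99, 9.55 and 9.52 in control day 3 and 4.72, 4.19 and 4.32 in induced 24 h, a distance of more than 4 log2 units at every pairing. The effect went from -0.91 (adjusted p = 0.348) to -5.28, a change of -4.37 ± 0.45 (adjusted p = 0.000862). Cer1 was 1 of 3 late falls, with Cdh2 and Upp1, in which the controls rose and the induced arrays fell, each past the test: by 2.35 and -2.02. Lhx1, a LIM homeobox factor of the node and anterior mesendoderm, read 7.72, 6.38 and 7.28 in control day 2.5, 6.95, 6.60 and 6.47 in induced 12 h, 10.02, 9.62 and 9.58 in control day 3 and 5.74, 6.28 and 5.32 in induced 24 h. Its change was -3.51 ± 0.42 (adjusted p = 0.00252), and only the control days differed by the test.

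Mesp1, a factor of nascent cardiovascular mesoderm, was low in the induced arrays at both times, with 4.52, 4.72 and 5.03 and 4.49, 5.14 and 4.61. Its controls rose from 6.65, 6.08 and 6.94 to 9.15, 9.32 and 8.84. The induced arrays moved by -0.01 between the times, so the change of -2.56 ± 0.33 (adjusted p = 0.00358) had the size of the difference between the control days, 2.55. Mixl1, a homeobox factor of the streak, read 9.66, 8.54 and 9.50 in control day 2.5, 7.91, 7.11 and 7.47 in induced 12 h, 10.57, 10.38 and 10.34 in control day 3 and 6.65, 6.54 and 6.56 in induced 24 h (change -2.11 ± 0.36, adjusted p = 0.0163). Eomes, a T-box factor required for streak mesoderm and endoderm, read 9.91, 9.27 and 9.80 and 10.32, 10.29 and 10.06 in the controls and 9.03, 8.36 and 8.91 and 6.99, 7.32 and 7.11 in the induced arrays. Its controls differed by 0.56 between the days (adjusted p = 0.435), and its induced arrays fell by 1.62 (adjusted p = 0.000696; change of the effect -2.19 ± 0.29, adjusted p = 0.00358). Snai1, the repressor of E-cadherin in cells leaving the streak, rose from 7.15, 6.96 and 7.34 to 8.77, 8.66 and 8.10 in the controls and read 6.55, 6.42 and 6.69 and 5.71, 6.10 and 5.86 in the induced arrays (change -2.02 ± 0.26, adjusted p = 0.00358).

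Over the 57 late falls the controls moved more than the induced arrays in 42 genes and less in 15. The rise of the controls between the days passed the test in 40 (0.562% of all genes rose) and the fall of the induced arrays in 17 (1.25% of all genes fell), 3 genes passing both and 3 neither. The 3 with neither were Bicc1, Jakmip1 and Lrig3. The median difference was 1.22 between the control days and -0.57 between the induced times. In 50 of the 57 the control day 3 arrays lay above the other 9 arrays (2.05% of all genes), and in 28 the induced 24 h arrays lay below the other 9 (3.71% of all genes). For 18 of the 57 the fitted effect at 12 h was above 0. These counts use the arrays by which the 57 were chosen, so they describe the change and do not test it again.

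**Figure D3:**
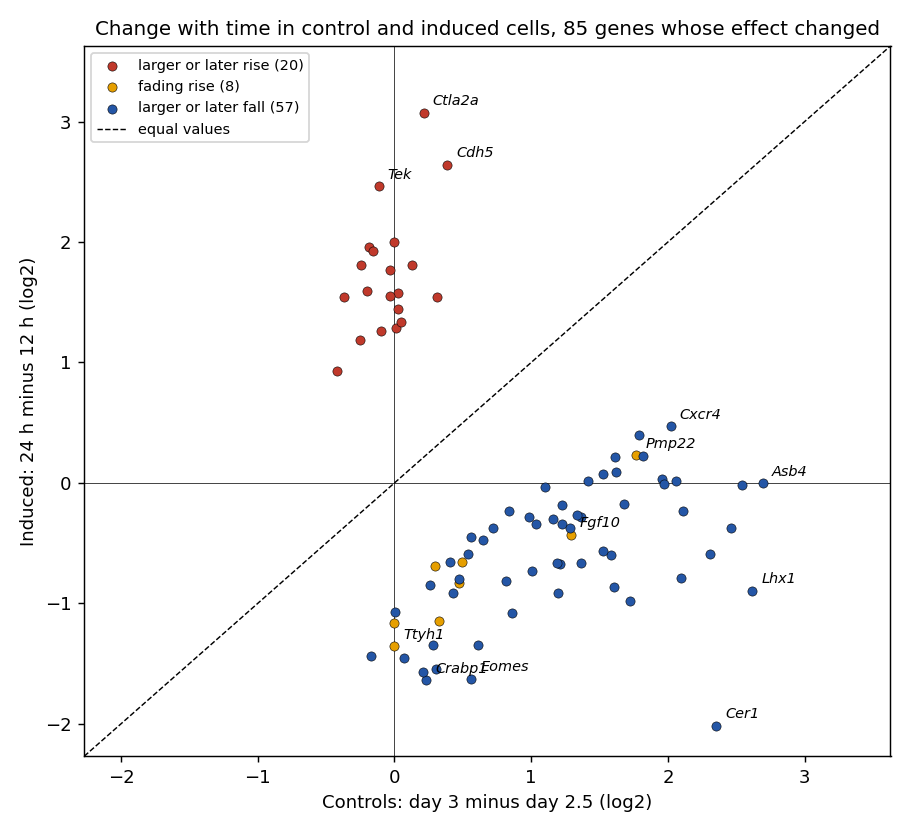
Difference between the control days (x axis) and between the induced times (y axis), in log2 units, for the 85 genes whose effect changed, with equal values on the dashed line; the change of the effect is the vertical distance from that line. The late rises stand between -0.42 and 0.39 on the x axis and between 0.93 and 3.07 on the y axis, and the late falls run from genes that moved in the controls only (Asb4, Cxcr4) to genes that moved in the induced cells only (Crabp1).

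A group of 14 late falls passed between the induced times and not between the control days, and genes of the epiblast and of FGF signalling were among them. Fgf5, the growth factor that marks the epiblast, stood at 9.15, 8.65 and 9.14 and 9.37, 9.41 and 9.08 in the controls. It read 7.38, 7.14 and 7.08 in induced 12 h and 5.49, 5.92 and 5.56 in induced 24 h, a second step of the same direction (effect -1.78, then -3.63; change -1.85 ± 0.25, adjusted p = 0.00455). Dusp6, a phosphatase that is both target and brake of FGF and ERK signalling, read 9.75, 9.28 and 9.72 and 9.77, 9.94 and 9.65 in the controls and 9.17, 8.66 and 8.96 and 7.33, 7.66 and 7.08 in the induced arrays (change -1.78 ± 0.27, adjusted p = 0.00647). Otx2, a homeobox factor of epiblast and anterior neural plate, read 9.36, 9.54 and 9.63 and 9.77, 9.83 and 9.77 in the controls, then 8.74, 9.08 and 8.94 and 7.25, 7.81 and 7.66 in the induced arrays (change -1.62 ± 0.22, adjusted p = 0.00504). In all of these the control means of the days differed by at most 0.30 log2 units, and each induced 24 h array lay below each induced 12 h array.

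Zic5, a zinc finger factor of epiblast and neural plate, had effects of -1.12 and -2.20 (change -1.08 ± 0.21, adjusted p = 0.0447; not passed with line as a covariate, with further quantile normalization, with centred arrays or with the mean of its probe sets). Cdh2, N-cadherin, which replaces E-cadherin in mesoderm, rose in the controls from 8.23, 7.58 and 8.06 to 9.92, 9.48 and 9.62 and fell in the induced arrays from 7.54, 6.99 and 7.22 to 6.64, 6.31 and 5.85 (change -2.70 ± 0.32, adjusted p = 0.00211). In the epiblast list 4 of 13 measured genes passed, all lower at 24 h (0.326% of all genes), with a list median of -0.56. Of 24 pluripotency genes only Tdgf1 passed, and the median was -0.19.

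The remaining 7 genes of that group of 14, beside Fgf5, Dusp6, Otx2, Zic5, Eomes, Tdgf1 and Fst, were Crabp1, Cnn1, Epha1, Dpysl5, Arid3b, Emb and St6gal1. Cnn1, the smooth muscle calponin, was 7.52, 7.94 and 7.82 and then 6.0, 6.43 and 6.53 in the induced arrays and 7.96, 8.42 and 8.23 in control day 3 (change -1.27 ± 0.25), which did not pass after further quantile normalization or with centred arrays. Dpysl5, a protein of growing axons, changed by -1.35 ± 0.24, the AT-rich DNA binding factor Arid3b by -1.28 ± 0.24, the immunoglobulin superfamily protein Emb (embigin) by -1.12 ± 0.19 and the sialyltransferase St6gal1 by -1.06 ± 0.19. Dpysl5 and St6gal1 did not pass after further quantile normalization either. The adjusted p of these 5 genes ran from 0.0164 for Emb to 0.0377 for Cnn1. Upp1, uridine phosphorylase of pyrimidine salvage, fell from 9.13, 9.22 and 9.42 to 7.78, 8.37 and 8.39 in the induced arrays while its controls rose from 10.24 ± 0.22 to 11.10 ± 0.09 (mean ± SD, n = 3; change -1.93 ± 0.25, adjusted p = 0.00358).

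Arranged by pathway, the genes of the Nodal and activin list that passed were the co-receptor Tdgf1 and the antagonists Fst and Cer1, and no ligand. Nodal, the ligand, had effects of -0.97 at 12 h and -1.54 at 24 h (change -0.58 ± 0.26, adjusted p = 0.855). Tdgf1, the co-receptor Cripto, read 12.20, 12.35 and 12.27 and 12.30, 12.33 and 12.40 in the controls, 11.58, 11.60 and 11.73 in induced 12 h and 10.19, 10.37 and 9.97 in induced 24 h. The controls, the induced 12 h arrays and the induced 24 h arrays occupied separate levels (change -1.53 ± 0.19, adjusted p = 0.0028). Cfc1, the related co-receptor Cryptic of left-right patterning, which the list does not hold, also passed; it read 6.05, 6.03 and 6.06 in control day 2.5, 6.23, 6.43 and 6.61 in induced 12 h, 8.80, 8.18 and 8.54 in control day 3 and 5.86, 6.25 and 6.04 in induced 24 h. It lay between 5.86 and 6.61 in every array but the later controls, and its change of -2.83 ± 0.24 had an adjusted p of 0.000113. Fst, follistatin, which binds activin, stood far apart at both times, with 9.45, 8.75 and 9.44 and 9.97, 9.91 and 9.60 in the controls, 6.52, 6.55 and 6.80 in induced 12 h and 5.24, 5.12 and 5.48 in induced 24 h (change -1.96 ± 0.27, adjusted p = 0.00504). Lefty1, another antagonist, gave -0.41 ± 0.33 and did not pass (adjusted p = 0.999). In the list 3 of 17 genes passed, all lower at 24 h (0.326% of all genes were), with a median of -0.43.

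In the list of Wnt ligands, receptors and antagonists 4 of 33 genes passed, all lower at 24 h (0.326% of all genes), with a list median of -0.28. They were the ligand Wnt5a, the antagonists Frzb and Dkk1, and Cer1, given above as an antagonist of Nodal and BMP. Wnt5a, a ligand of the non-canonical branch, rose in the controls from 4.87, 5.16 and 4.74 to 6.67, 6.15 and 5.96 and read 5.04, 4.74 and 4.41 and 4.52, 4.20 and 4.68 in the induced arrays (change -1.60 ± 0.30, adjusted p = 0.0299). Wnt3, the ligand of streak formation, gave -0.62 ± 0.30 (adjusted p = 0.89). Frzb, a secreted decoy receptor, read 6.32, 5.22 and 6.27 in control day 2.5, 5.30, 4.35 and 5.18 in induced 12 h, 8.26, 8.19 and 8.29 in control day 3 and 3.76, 4.40 and 4.91 in induced 24 h (change -2.90 ± 0.46, adjusted p = 0.0106). Dkk1, which blocks the Wnt co-receptor, had the highest fitted effect at 12 h of the late falls, 0.87. It read 6.76, 7.28 and 7.24 in induced 12 h against 6.42, 5.85 and 6.43, with no overlap, and 6.56, 7.77 and 7.0 in induced 24 h against 8.41, 8.21 and 8.26 (change -2.04 ± 0.37, adjusted p = 0.0216; the effect at 12 h had an adjusted p of 0.197). Of 15 Wnt target genes Sp5 alone passed, with 7.63, 6.94 and 7.67 and 8.70, 8.83 and 8.55 in the controls and 6.22, 5.93 and 5.95 and 5.35, 5.99 and 5.64 in the induced arrays (change -1.65 ± 0.29, adjusted p = 0.0187).

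The FGF pathway had 3 of 22 genes past the test, all lower at 24 h (0.326% of all genes): the ligand Fgf5 as a late fall, the ligand Fgf10 as a fading rise and the phosphatase Dusp6 as a late fall. The list's median change was -0.57, against -0.01 over all genes, and 3 of its 22 genes lay above 0, against 9715 of 19938. Fgf8, the ligand of the streak, was lower at both times by similar amounts (-1.22 and -1.59, adjusted p of the change 0.999). The receptor Fgfr2 gave -0.55 ± 0.25 (adjusted p = 0.865), and the target Etv5 -1.24 ± 0.33 (adjusted p = 0.209).

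In the BMP pathway the ligand Bmp7 was the only 1 of 25 to pass (4%, against 0.426% of all genes). It rose in the controls from 5.91, 5.98 and 6.09 to 7.46, 6.98 and 7.20, while the induced arrays read 6.51, 6.54 and 6.43 and 6.21, 5.96 and 6.28 (change -1.57 ± 0.21, adjusted p = 0.00427). The induced arrays were therefore above the controls at day 2.5 in every array, by an effect that did not pass (adjusted p = 0.175), and below them at day 3 in every array. Bmp4, the ligand that induces ventral mesoderm, was higher in induced cells at both times by 1.64 and 1.49, and its change of -0.15 ± 0.22 did not pass (adjusted p = 0.999). Gpc3, a glypican of the cell surface, crossed in the same way as Bmp7, with 9.28, 9.23 and 9.48 against 8.82, 8.77 and 9.18 at day 2.5 and 8.88, 9.16 and 9.05 against 10.23, 9.87 and 10.14 at day 3 (change -1.46 ± 0.22, adjusted p = 0.00647; the effect at 12 h had an adjusted p of 0.441).

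Of 18 Notch pathway genes the ligand Jag1 passed (5.56%, against 0.426% of all genes). It read 6.28, 6.02 and 6.06 and 7.19, 6.97 and 7.21 in the controls and 5.99, 5.78 and 5.44 and 5.47, 4.89 and 4.67 in the induced arrays (change -1.74 ± 0.28, adjusted p = 0.0118). Of 14 retinoic acid genes 2 passed (14.3%, against 0.426% of all genes). Cyp26a1, the enzyme that breaks retinoic acid down, rose in the controls from 7.27, 5.80 and 6.71 to 8.94, 8.45 and 8.72 and read 7.06, 6.39 and 6.77 and 6.69, 6.42 and 6.40 in the induced arrays (change -2.34 ± 0.41, adjusted p = 0.0176). Crabp1, a cellular retinoic acid binding protein, was level at 8.47, 8.90 and 8.83 and 8.94, 8.84 and 9.11 in the controls and 8.39, 8.66 and 8.62 in induced 12 h, and read 6.93, 7.28 and 6.55 in induced 24 h (change -1.87 ± 0.26, adjusted p = 0.00504). Between the days the controls of the enzyme moved by 2.11 and its induced arrays by -0.23, and those of the binding protein by 0.23 and -1.64.

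Among 30 guidance genes 3 passed (10%, against 0.426% of all genes): the secreted ligand Slit2, the semaphorin Sema6d and the ephrin receptor Epha1. Slit2 rose in the controls from 6.53, 5.58 and 5.89 to 7.71, 7.25 and 7.63 against 5.28, 5.59 and 5.52 and 5.13, 4.83 and 4.73 in the induced arrays (change -2.10 ± 0.31, adjusted p = 0.0056). Sema6d rose from 4.98, 4.58 and 4.95 to 6.91, 6.14 and 6.49 against 4.98, 4.59 and 4.61 and 4.51, 4.63 and 4.52 (change -1.85 ± 0.27, adjusted p = 0.0056). Epha1 was lower at both times, with 7.31, 7.03 and 6.91 against 9.03, 8.48 and 8.82 and 6.24, 6.21 and 6.26 against 9.09, 9.08 and 8.95 (change -1.11 ± 0.22, adjusted p = 0.0447; not passed with line as a covariate or with centred arrays).

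Of 22 cardiac mesoderm genes 4 passed, all lower at 24 h (0.326% of all genes). Pdgfra, the PDGF receptor of cardiac and paraxial mesoderm, rose in the controls from 5.93, 5.38 and 5.98 to 7.80, 7.34 and 8.06 and stayed at 4.95, 5.27 and 4.67 and 4.90, 5.06 and 4.90 in the induced arrays (change -1.98 ± 0.30, adjusted p = 0.00654). Myl7, the atrial myosin light chain, rose from 5.37, 5.49 and 5.84 to 7.14, 7.08 and 7.24 against 5.43, 5.82 and 5.76 and 4.79, 5.17 and 5.24 (change -2.18 ± 0.24, adjusted p = 0.00107), and Gata4, a factor of heart and endoderm, from 5.94, 6.01 and 6.24 to 7.96, 7.44 and 7.64 against 5.97, 5.92 and 5.70 and 5.81, 6.26 and 6.16 (change -1.40 ± 0.24, adjusted p = 0.0163). In each the induced arrays of both times lay below all control day 3 arrays. Of 19 paraxial genes Mesp2, a factor of somite formation, passed with -1.40 ± 0.25 (adjusted p = 0.0178). Over all genes 0.426% passed in either direction. Of 24 endoderm genes 3 were lower (Cer1, Gata4 and the chemokine receptor Cxcr4) and Sox7 was higher; Cxcr4 rose in the controls from 6.29, 6.05 and 6.28 to 8.23, 8.12 and 8.33 against 5.89, 5.89 and 6.03 and 6.08, 6.73 and 6.41 (change -1.55 ± 0.23, adjusted p = 0.0056). Of 19 genes of the epithelial-mesenchymal transition list Cdh2 and Snai1 passed.

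Asb4, an ankyrin repeat protein of ubiquitin ligase complexes, kept its call under all 24 alternatives with a value for single genes. It read 6.38, 6.20 and 6.78 in control day 2.5, 5.34, 5.41 and 5.43 in induced 12 h, 9.10, 8.98 and 9.36 in control day 3 and 5.29, 5.46 and 5.43 in induced 24 h. The induced arrays did not move between the times (-0.0025) while the controls rose by 2.69, and the change was -2.70 ± 0.23 (adjusted p = 0.000113). Dgkk, a diacylglycerol kinase, read 7.01, 5.72 and 6.38 and 8.79, 8.12 and 8.48 in the controls and 7.27, 6.50 and 6.57 and 6.59, 5.85 and 5.54 in the induced arrays (change -2.88 ± 0.47, adjusted p = 0.0117).

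The other late falls were outside these lists. Changes between -1.93 and -1.54 were found for the transcript B130016D09Rik (-1.93), the protease Adam19 (-1.88), the sulfotransferase Chst7 (-1.86), the membrane protein Lrig3 (-1.62), Samd3 (-1.59) and the transporter family member Slc44a5 (-1.54). Smaller ones were found for the G protein regulator Rgs5 (-1.45), the polycystin family member Pkd1l1 (-1.40), the chromatin factor Prdm6 (-1.39), the cadherin Cdh20 (-1.37), the homeobox factor Six2 (-1.27), the chromatin protein Hmga2 (-1.14), Jakmip1 (-1.12), the sialyltransferase St3gal6 (-1.10), the receptor Adcyap1r1 (-1.07) and the RNA binding protein Bicc1 (-1.01). Of these 16 genes 13 rose by the test between the control days, and the exceptions were Lrig3, Jakmip1 and Bicc1. Prdm6 crossed like Bmp7, with 5.38, 5.47 and 5.31 against 4.97, 4.53 and 4.82 at day 2.5 (adjusted p of the effect 0.134) and 5.94, 5.93 and 5.50 against 6.74, 6.31 and 6.65 at day 3. Of the 16, Bicc1, Adcyap1r1, Jakmip1 and Six2 did not pass with centred arrays, Bicc1 and Jakmip1 not after further quantile normalization, Bicc1 and Adcyap1r1 not with a trend in the prior, and Bicc1 not with the mean of its probe sets.

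Among the 57 late falls 31 passed without each single array, and 26 did not. Those that turned on at most 5 arrays were Hmga2 (2 arrays, adjusted p at most 0.0541), Gata4, Mir302c, Mixl1 and St3gal6 (3 arrays, at most 0.0695), Dpysl5, Pkd1l1 and Prdm6 (4 arrays, at most 0.0717) and Cyp26a1, Emb and Sp5 (5 arrays, at most 0.0674). Cdh20, Mesp2, Dkk1, Wnt5a, Cnn1, Lrig3, St6gal1 and Arid3b turned on 6 to 9 arrays (at most 0.137), and Adcyap1r1, Bicc1, Jakmip1, Mir302b, Six2, Epha1 and Zic5 on 10 or 11 (at most 0.182).

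The microRNA genes that passed were Mir302b and Mir302c, neighbours in a cluster that is active in pluripotent and epiblast cells and that targets cell cycle and signalling transcripts. Their mature sequences are shown because the family is defined by its seed, the bases at positions 2 to 8 that pair with targets, here in capitals. The sequences are from RefSeq (GRCm38.p6, plus strand), at chr3:127545238-127545260 and chr3:127545275-127545297 for Mir302b and chr3:127545368-127545389 and chr3:127545406-127545427 for Mir302c.
miR-302b-5p: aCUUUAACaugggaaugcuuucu
miR-302b-3p: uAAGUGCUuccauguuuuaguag
miR-302c-5p: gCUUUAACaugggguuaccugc
miR-302c-3p: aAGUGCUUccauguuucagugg
The 5p arms share the seed CUUUAAC, and the 3p arms have the seeds AAGUGCU and AGUGCUU. Array probe sets for these genes read RNA of the locus from amplified total RNA, and the arms are not told apart.

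Mir302c read 5.55, 4.94 and 5.64 in control day 2.5 and 5.0, 5.65 and 6.09 in induced 12 h, then 6.45, 7.59 and 6.91 in control day 3 and 4.89, 4.51 and 4.75 in induced 24 h. The groups overlapped at day 2.5 and were apart at day 3 (change -2.48 ± 0.42, adjusted p = 0.0163). Mir302b read 4.67, 5.65 and 4.94 in control day 3 and 3.49, 3.71 and 3.26 in induced 24 h, and between 3.49 and 4.06 in the arrays of day 2.5 (change -1.65 ± 0.32, adjusted p = 0.0398; not passed with centred arrays). The other members of the cluster had changes of the same direction and did not pass: -2.95 ± 0.66 for Mir302a (adjusted p = 0.0907), -2.05 ± 0.45 for Mir302d (adjusted p = 0.0838) and -3.13 ± 0.73 for Mir367 (adjusted p = 0.105). Larp7, the protein-coding gene of the same locus, gave -0.34 ± 0.21 (adjusted p = 0.984).

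In 11 lists beside the induced factors no gene passed the test of the change. They were the erythroid (14 genes measured), neuroectoderm (14), Hox and Cdx (26), basement membrane and matrix (16), cell cycle and replication (24), glycolysis and hypoxia (23), immediate early (17), amino acid transport and ATF4 (23), interferon and antigen presentation (18), fibroblast feeder (18) and reference gene (8) lists. Their median changes lay between -0.18 and 0.28. Over all genes 0.426% passed, so the absence of calls does not set lists of 8 to 26 genes apart. Actb, a cytoskeletal reference gene, gave -0.01 ± 0.17, and Pcna, the DNA replication clamp, 0.00084 ± 0.17. Some genes of these lists had similar effects at both times. The amino acid transporter Slc7a5 read 0.72 at 12 h and 0.84 at 24 h, and the surface glycoprotein Thy1 of the feeder list 1.02 and 0.98. In the smooth muscle list Cnn1 passed, 1 of 12.

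**Figure D4:**
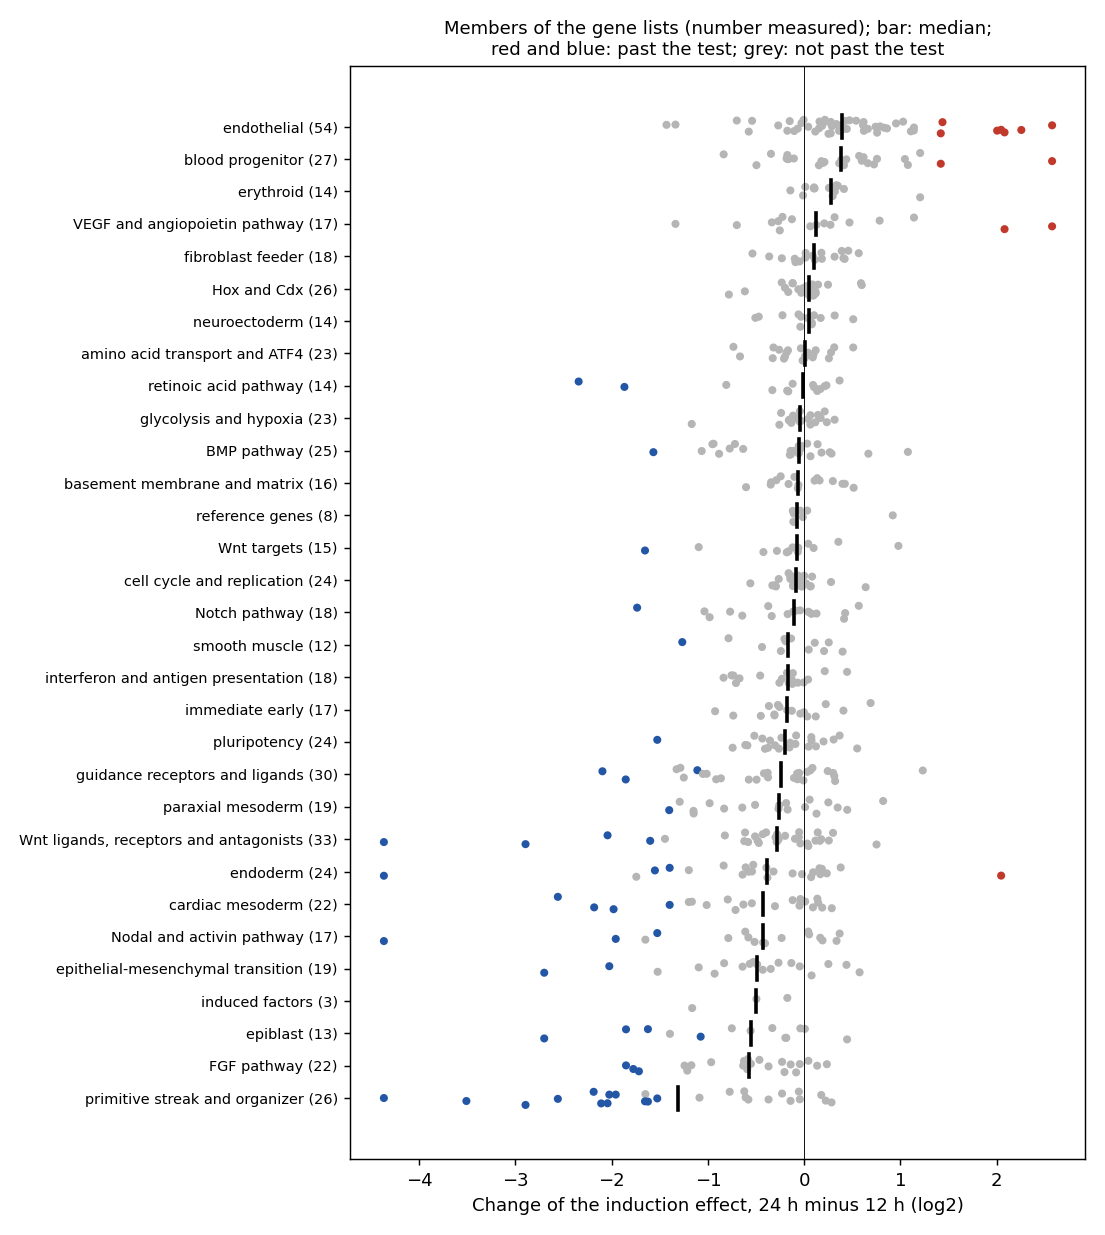
Change of the induction effect (x axis, log2) of the measured members of 31 gene lists (y axis, with the number measured), members past the test in red (higher at 24 h) or blue (lower at 24 h) and list medians as bars. The endothelial list has its 7 called members between 1.42 and 2.58, and the streak and organizer list its 12 between -4.37 and -1.53.

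The induced factors themselves did not pass the test of the change. Etv2 read 7.38, 6.77 and 6.92 in control day 2.5, 10.47, 9.91 and 10.0 in induced 12 h, 7.85, 8.05 and 7.55 in control day 3 and 9.73, 9.83 and 9.73 in induced 24 h. Its effect was 3.11 at 12 h and 1.94 at 24 h, a change of -1.16 ± 0.27 (adjusted p = 0.105). It passed with each same-numbered pair of a day as a block (adjusted p = 0.0118), and again with the replicate number as a block over all groups, with array weights and without replicate 1 of control day 2.5. Gata2 read 10.43, 9.89 and 9.93 in induced 12 h against 5.85, 5.49 and 5.59, and 10.01, 10.03 and 9.94 in induced 24 h against 6.29, 5.74 and 6.11 (change -0.50 ± 0.25, adjusted p = 0.919). Tal1 read 7.94, 6.94 and 7.15 against 5.14, 4.85 and 4.61 and 7.38, 7.72 and 7.49 against 4.88, 5.45 and 5.35 (change -0.17 ± 0.34, adjusted p = 0.999). All 3 were higher in every induced array than in every control array of the same day. The probe sets do not separate the introduced from the endogenous copies in these files.

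The 6 h arrays (control day 2.25 and induced 6 h, 1 of each, line iEGS) took no part in choosing the 85 genes, but a difference between single arrays has no error. Over all genes 71 differed by at least 2-fold (0.356%). Of the 8 fading rises 3 were at least 2-fold higher at 6 h: Fgf10 (1.41), Pcdh19 (1.03) and Nxph4 (1.03), and their median was 0.93. Ceacam10 differed in the other direction (-0.80). Of the 20 late rises Fli1 alone was at least 2-fold higher (1.16), with a median of 0.21. Of the 57 late falls Fst (-1.58), Fgf5 (-1.32) and Zic5 (-1.04) were at least 2-fold lower, with a median of -0.14. Tek read 4.71 in the control and 5.17 in the induced array at 6 h, and Cer1 6.95 and 7.07.

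**Figure D5:**
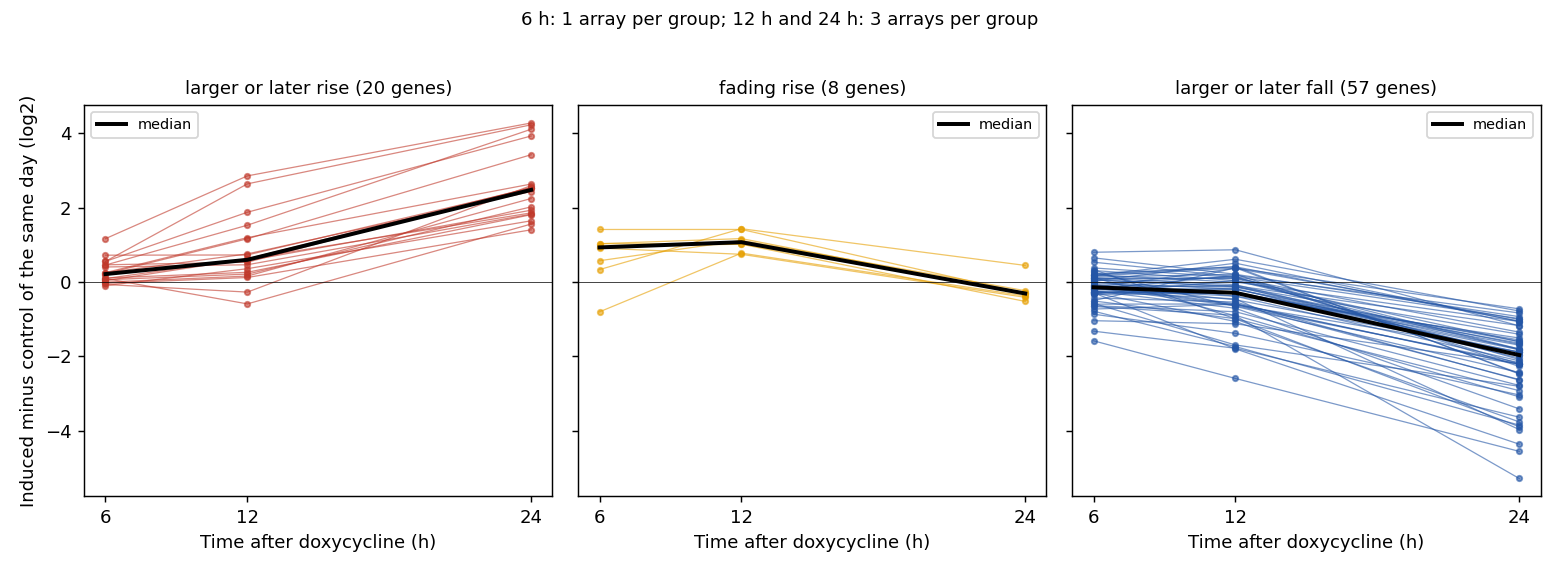
Induced minus control of the same day (y axis, log2) at 6 h, 12 h and 24 h of doxycycline (x axis) for each gene of the 3 classes, with the median in black; 6 h rests on 1 array per group and the later times on 3. The medians run from 0.21 over 0.60 to 2.47 in the late rises, from 0.93 over 1.07 to -0.31 in the fading rises and from -0.14 over -0.29 to -1.96 in the late falls.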

How the data were processed

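RNA of 14 samples was amplified and hybridised to Affymetrix arrays, and the deposited log2 signals, 1 column per array, were made by the authors with Affymetrix Expression Console and RMA, per the submitters' processing notes. RMA corrects background, normalizes quantiles and summarises probes to probe sets. Versions, like the set of arrays normalized as 1 batch, were not given in the sources used here.

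Of 35556 probe sets 21789 carried 1 gene symbol, 1621 several and 12146 none in the platform annotation, and 21698 matched RefSeq names (GRCm38.p6). For 999 genes with several probe sets the one with the highest mean was kept, which gave 19938 genes. A model of 4 group means over 12 arrays was fitted in limma 3.58.1 (R 4.3.3; lmFit and eBayes, 8 residual and 6.054 prior degrees of freedom), without a filter. The contrast was (induced 24 h minus control day 3) minus (induced 12 h minus control day 2.5), adjusted by Benjamini-Hochberg over all genes and called at 0.05. The same fit gave the effects at each time and the differences between control days and between induced times, which share arrays with the change. The method was checked on simulated data with independent noise between arrays. That setting lacks the shared deviations of same-numbered arrays given below, so the check does not cover them. The number of arrays, 3 per group, limits the precision. The p-values set each change against the spread between these arrays, estimated with information shared over genes. In the main fit the lines were pooled and same-numbered arrays were not paired.

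Same-numbered control and induced arrays of a day deviated together (correlations of 0.262 to 0.573 at day 2.5 and 0.157 to 0.517 at day 3). Replicate 2 of control day 3, however, correlated more with a differently numbered induced 24 h array (0.375) than with its own number (0.157). Across days the same-numbered correlations were -0.00474 to 0.556. The pairs used as blocks come from the numbers in the labels, and these correlations do not settle whether samples were paired. Named by rule were the induced factors, the calls of largest size in each class, up to 4 called members of each list, the brightest members of lists without a call, and called microRNA genes. The other genes of the 85, and uncalled relatives such as Kdr, Ets1, Hey1 and Mir302a, were named after their values were seen. The members, classes and lists were chosen with earlier results of these data known. A class compares sizes: a rise or fall is larger or later where the fitted effect is larger in size at 24 h, and fading where it is larger at 12 h. Promoter windows and miRNA sequences came from RefSeq tables, and windows were found for 13 of 20 late rises, 6 of 8 fading rises and 47 of 57 late falls. Alternatives were blocks, line, normalization, filters, probe-set rules, array weights, a trend in the prior, and left-out arrays.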

Additional observations from a re-analysis of the deposited data

Results flagged for a closer look

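In 85 genes the induction effect differed between 12 h and 24 h by the test of the difference itself (limma, Benjamini-Hochberg adjusted p under 0.05, 3 arrays per group). Groups of 3 arrays are too small to test for a sample that stands apart. Values are log2 changes of the effect, 24 h minus 12 h.

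The rises that grew or came later had changes of 2.86 for Ctla2a, 2.58 for Tek, 2.26 for Cdh5, 2.14 for Ctla2b, 2.08 for Ptprb, 2.05 for Sox7, 2.01 for Gja4, 1.91 for Rnd2, 1.81 for Ubash3b, 1.79 for Gadd45g, 1.68 for Scube2, 1.59 for Npl, 1.55 for Ets2, 1.44 for Egfl7, 1.42 for Fli1, 1.36 for Glp1r, 1.36 for Srxn1, 1.29 for Skap1, 1.28 for Igf1 and 1.24 for Tspan18. The rises that faded had changes of -1.72 for Fgf10, -1.54 for Pmp22, -1.48 for Pcdh19, -1.35 for Ttyh1, -1.31 for Nxph4, -1.16 for Crym, -1.15 for Ceacam10 and -0.99 for Car5b. Both classes are described gene by gene above.

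Among the falls that grew or came later, 17 passed between the induced times, with changes of -4.37 for Cer1, -2.70 for Cdh2, -2.19 for Eomes, -1.96 for Fst, -1.93 for Upp1, -1.87 for Crabp1, -1.85 for Fgf5, -1.78 for Dusp6, -1.62 for Otx2, -1.53 for Tdgf1, -1.35 for Dpysl5, -1.28 for Arid3b, -1.27 for Cnn1, -1.12 for Emb, -1.11 for Epha1, -1.08 for Zic5 and -1.06 for St6gal1. Another 37 passed between the control days and not between the induced times. Their changes were -3.51 for Lhx1, -2.90 for Frzb, -2.88 for Dgkk, -2.83 for Cfc1, -2.70 for Asb4, -2.56 for Mesp1, -2.48 for Mir302c, -2.34 for Cyp26a1, -2.18 for Myl7, -2.11 for Mixl1, -2.10 for Slit2, -2.04 for Dkk1, -2.02 for Snai1, -1.98 for Pdgfra, -1.93 for B130016D09Rik, -1.88 for Adam19, -1.86 for Chst7 and -1.85 for Sema6d. The smaller ones of this group were -1.74 for Jag1, -1.65 for Sp5, -1.65 for Mir302b, -1.60 for Wnt5a, -1.59 for Samd3, -1.57 for Bmp7, -1.55 for Cxcr4, -1.54 for Slc44a5, -1.46 for Gpc3, -1.45 for Rgs5, -1.40 for Mesp2, -1.40 for Pkd1l1, -1.40 for Gata4, -1.39 for Prdm6, -1.37 for Cdh20, -1.27 for Six2, -1.14 for Hmga2, -1.10 for St3gal6 and -1.07 for Adcyap1r1. The remaining 3 passed neither test, with -1.62 for Lrig3, -1.12 for Jakmip1 and -1.01 for Bicc1. The tests between control days and between induced times use the same 12 arrays as the change itself.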

How the results depend on the processing

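The direction of the change held for all 85 genes in every alternative that measured them (75 were left without the dim genes), and Asb4 alone kept its call in all 24 alternatives with a value per gene. Left out as dim, by low mean signal, were Car5b, Pcdh19, Ptprb, Igf1, Skap1, Mir302b, Rgs5, Samd3, Cdh20 and Slc44a5. The alternatives reuse the arrays by which the genes were chosen, and the block fits leave the size of the change as it was. A kept direction is therefore no independent test. Counts are given as genes called, then late rises, fading rises and late falls, beside 85, 20, 8 and 57. Under the replicate block (number as a term over all groups) there were 163, 36, 17 and 110 (36 higher and 127 lower at 24 h). With the replicate block within day there were 140, 28, 13 and 99 (112 lower). Neither block lost a call. After quantile normalization again there were 130, with 48 late rises (48 higher). With all probe sets tested there were 39, 9, 0 and 30 (9 higher, 30 lower). With array weights there were 318, 111, 32 and 164, beside 11 falls that faded (122 higher, 196 lower). Array weights were 0.27, 3.33 and 0.318 for the induced 24 h arrays. Line as a covariate gave 87 genes, centred arrays 78, no dim genes 102, the mean of probe sets 83 and a trend 92. Over the left-out replicates and arrays the counts ran from 2 to 109 genes, 0 to 28 higher, 1 to 84 lower, 0 to 28 late rises, 0 to 10 fading rises, 1 to 74 late falls and 0 to 0 fading falls. Late rises numbered 11 without replicate 1 of control day 3, 11 without replicate 2 of induced 12 h, 12 without replicate 3 of induced 12 h and 12 without replicate 2 of induced 24 h. Leaving out replicate 1, 2 or 3 gave 73, 4 and 2 genes, each with 4 residual degrees of freedom. The causes of these shifts were not tested.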
